A study of Mus musculus with 81 samples.

Results

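The genes described are 10 genes of antigen presentation by MHC class II, found by their symbols in a table of 51826 genes from mouse thymus and thymic lymphoma. All 10 were present: H2-Aa, H2-Ab1 and H2-Eb1 (chains of the class II molecules), Cd74, Ciita, H2-DMa, H2-DMb1, H2-DMb2, H2-Oa and H2-Ob. They were chosen by name, not by their values in one comparison, and all 10 passed the filter on low counts in both fits used below.

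The study sequenced RNA from 81 libraries of 40 mice to follow lymphomas that arise after a transient burst of chromosome instability. All mice were of the C57BL/6 x 129S4Sv/Jae strain and carried the same 3 alleles, Plk4(Col1a1), rtTA(Rosa) and centrin-GFP(Rosa), so the normal mice carried the inducible Plk4 transgene as well. The normal group was thymus of 8 untreated p53+/+ mice, and 1 untreated p53+/- mouse gave a further normal thymus. The lymphomas came from 10 untreated p53-/- mice (23 libraries), 9 doxycycline-treated p53-/- mice (18 libraries) and 12 doxycycline-treated p53+/- mice (31 libraries). Doxycycline, which turns the Plk4 transgene on, was given during 2 weeks starting at an age of 30 days. Age at collection is not given in the sources used here, and 9 of the 10 untreated p53-/- mice were labelled male. In 13 lymphomas several regions were sampled separately (54 libraries), and these biopsies were summed per mouse wherever groups are compared, except in the limma voom alternative, which took every library with an estimated correlation within mice.

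Class II molecules are pairs of an alpha and a beta chain that carry peptides from endosomes to the cell surface, where CD4 T cells read them. The invariant chain Cd74 guides new class II molecules to the endosome and blocks their groove, H2-DM exchanges the remaining fragment for peptide, and H2-O restrains H2-DM. The transactivator Ciita switches class II genes on through a conserved pair of promoter elements, and in thymus they are known from epithelial cells, dendritic cells, macrophages and B cells, while mouse thymocytes largely lack them.

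Promoter stretches are shown because such an element pair is known from promoters of class II genes, as targets of Ciita. RefSeq windows (GRCm38.p6, 250 bases before to 50 after the transcript start) of 7 genes were searched, H2-Ab1 and Ciita had no entry, and the window of Cd74 was not analysed here. In 6 of the 7 genes the letters AAC preceded the letters GATTGG by 27 to 30 bases on the strand of the gene, counted from the first A of one to the G of the other. Capitals mark these letters in the stretches below, each written 5′ to 3′ on the strand of its gene.
H2-Aa: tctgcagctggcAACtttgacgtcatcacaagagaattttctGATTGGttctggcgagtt
H2-Eb1: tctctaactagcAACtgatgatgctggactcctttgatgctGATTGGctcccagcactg
H2-DMb1: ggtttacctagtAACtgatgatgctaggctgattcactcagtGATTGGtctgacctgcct
H2-DMb2: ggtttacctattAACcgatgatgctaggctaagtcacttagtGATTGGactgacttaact
H2-Oa: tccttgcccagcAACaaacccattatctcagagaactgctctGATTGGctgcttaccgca
H2-Ob: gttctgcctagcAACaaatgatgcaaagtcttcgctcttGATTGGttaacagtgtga

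All 6 stretches lie on chromosome 17 of GRCm38.p6. That of H2-Aa is chr17:34287855-34287914 on the minus strand. The others are on the plus strand, at chr17:34305766-34305824 for H2-Eb1, chr17:34153087-34153146 for H2-DMb1, chr17:34145116-34145175 for H2-DMb2, chr17:34092293-34092352 for H2-Oa and chr17:34238808-34238864 for H2-Ob. GATTGG began between 44 and 91 bases before the transcript start. Of 32851 windows in the table, 16.1% held GATTGG on either strand, 0.393% held the spaced pair on the strand of the gene and 0.913% held it on either strand. The letters and their spacing were chosen after reading the windows of these genes, so the shares are a description and no test. Neither of the 2 windows of H2-DMa held the spaced pair, and 1 of them held GATTGG. A match to letters does not show that a factor binds.

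On chromosome 17 the 8 members other than Ciita and Cd74 lie within 224 kb, from 34092340 to 34316674 in GENCODE M21 coordinates of GRCm38. Ciita is on chromosome 16 (10480059 to 10528418) and Cd74 on chromosome 18. All 10 are annotated as protein-coding genes. Some of their spans overlap genes on the opposite strand, namely Brd2 and the pseudogene Gm20493 for H2-DMa, Dexi for Ciita, Gm20513 for H2-Eb1 and BC051537 for H2-Oa. Strandedness of the counting is not given in the sources used here, so reads of such pairs may not be told apart. H2-DMb1 and H2-DMb2 are near copies, and their expected counts were not whole numbers in 98.8% of libraries, which means that reads were divided between genes. The same held for H2-Oa in 97.5% of libraries, and for the 3 classical chains in 0.0%.

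Library totals ran from 1.03 M to 26.87 M counts, with the lowest in mouse 857, a treated p53-/- lymphoma. An untreated p53-/- lymphoma, mouse 881, stood apart from the others, with the T-cell gene Cd3e at 1.77 CPM (counts scaled to a library total of 1 M). A normal thymus, mouse 387, had Cd3e at 51.9 CPM and the cortical epithelial protease Prss16 at 36.2 CPM. Both mice were kept as labelled, and results that rest on them are given with and without them. In 3 mice (328, 869 and 870) the sex genes went against the labelled sex, and fits without them are among the alternatives. The labels do not give sequencing batches. The edgeR tests weigh differences between groups against the spread between mice.

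Most of the 10 class II presentation genes were lower in each of the 3 lymphoma groups than in normal thymus. Together the 10 genes took between 0.181% and 0.689% of all counts in the 8 normal thymuses, with a median of 0.412%. The median share was 0.0748% in lymphomas of untreated p53-/- mice, 0.0526% with doxycycline on that genotype and 0.0822% in p53+/- mice. In edgeR's quasi-likelihood test with Benjamini-Hochberg adjustment over all genes, 8 of 10 members were lower in untreated p53-/- lymphomas, 10 of 10 in treated p53-/- lymphomas and 9 of 10 in treated p53+/- lymphomas, and none was higher. Of the 17841 genes tested, 40.7%, 52.1% and 50.9% were called in these comparisons, with 17.6%, 26.7% and 25.3% lower and 23.2%, 25.4% and 25.6% higher. The median log2 fold change of the members was -2.13, -2.58 and -1.96, beside 0.08, -0.04 and -0.00 over all genes. The 3 comparisons share the normal thymuses. Of 2 other class II genes in the table, 1 was tested and was not called in any group, at -0.10, -0.50 and -0.34. The summed level of those 2 was below every normal thymus in 5 of 31 lymphomas and above in 3. In bulk tissue, fewer cells of a type and less RNA per cell cannot be told apart.

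**Figure D1:**
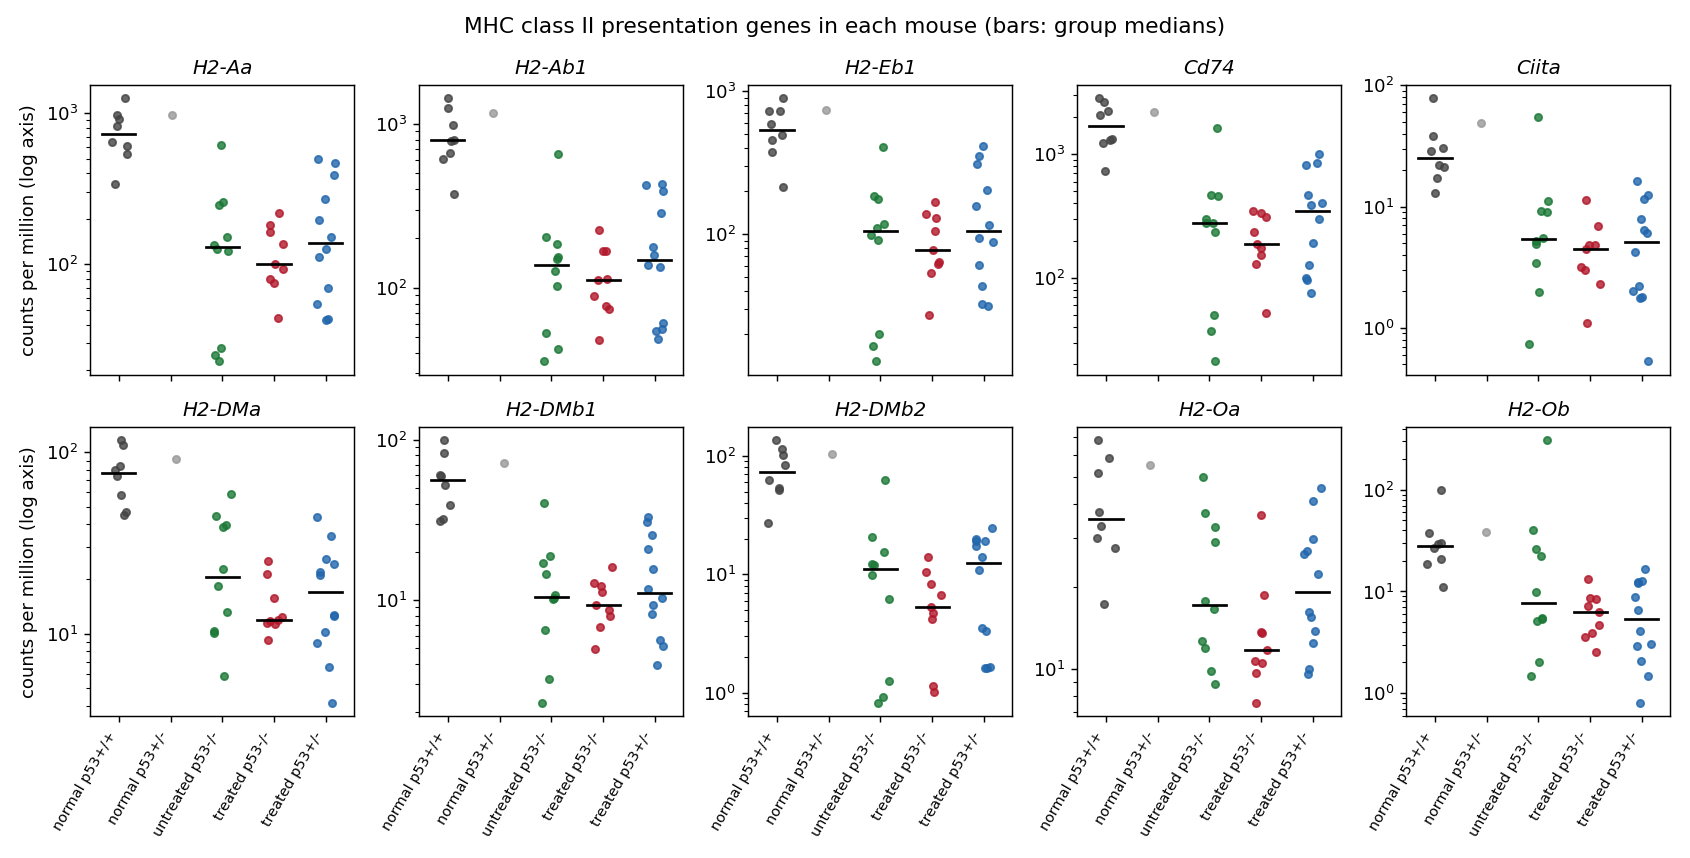
CPM (log axis) of each of the 10 genes in each mouse, by group, with biopsies of a mouse summed. Points are mice, and bars are medians of groups with more than 1 mouse. For H2-Ab1 the 8 normal thymuses sit between 375.5 and 1438 CPM, and 27 of 31 lymphomas sit below all of them.

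H2-Ab1, the beta chain of the I-A molecule, ran from 375.5 (mouse 818) over a median of 792.8 to 1438 CPM (mouse 978) in normal thymus. The lowest, median and highest values were 35.5, 137.9 and 659.7 CPM in untreated p53-/- lymphomas, 47.7, 110.8 and 225.1 CPM in treated p53-/- lymphomas, and 48.8, 148.6 and 427.8 CPM in treated p53+/- lymphomas. All 9 treated p53-/- lymphomas lay below every normal thymus, as did 9 of 10 untreated p53-/- and 9 of 12 treated p53+/- lymphomas. The 4 lymphomas within the normal range were mouse 881 and the treated p53+/- mice 25, 884 and 908.

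H2-Ab1 fell by 2.37 ± 0.48 (log2, SE, edgeR adjusted p = 0.000175) in untreated p53-/- lymphomas. The fall was by 2.79 ± 0.48 in treated p53-/- lymphomas (edgeR adjusted p = 1.05e-05) and by 2.01 ± 0.42 in treated p53+/- lymphomas (edgeR adjusted p = 0.000172). The single p53+/- normal thymus had 1160 CPM, inside the range of the p53+/+ thymuses.

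H2-Aa, the alpha chain that pairs with H2-Ab1, had a normal range of 338.0 to 1258 CPM with a median of 731.8. Its lymphoma medians, in the order of groups used so far, were 130.7, 100.2 and 139.2 CPM. It fell by 2.22 ± 0.53, 2.60 ± 0.52 and 1.82 ± 0.46 on the log2 scale, and 27 of 31 lymphomas lay below every normal thymus. H2-Eb1, the beta chain of the I-E molecule, went from a normal median of 538.1 CPM to medians of 104.5, 78 and 104.6 CPM, and fell by 2.22 ± 0.54, 2.56 ± 0.54 and 1.73 ± 0.48. The ratio of H2-Ab1 to H2-Aa had a median of 1.15 in normal thymus (0.867 to 1.31) and 1.06 over the 31 lymphomas (0.721 to 2.33), with 10 of them below (15 without mouse 387) and 3 above every normal thymus.

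Cd74 was the most abundant member per length of transcript in every group. Its normal thymus values ran from 735.5 over a median of 1694 to 2835 CPM. Lymphoma medians were 278.4, 185.9 and 344.3 CPM, and the lowest value was 21.1 CPM in mouse 562, an untreated p53-/- lymphoma. Cd74 fell by 2.27 ± 0.59 (edgeR adjusted p = 0.00229), 3.03 ± 0.59 (6.53e-05) and 2.06 ± 0.52 (0.00125). Cd74 over H2-Ab1 stood at a median of 1.99 in normal thymus and 1.84 in lymphomas, with 9 of 31 lymphomas below and 2 above every normal thymus. The highest normal ratio, 2.81, was that of mouse 387, and without it 11 of 31 lymphomas lay above every normal thymus (highest 2.08). The lowest ratio was 0.4, in mouse 562.

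**Figure D2:**
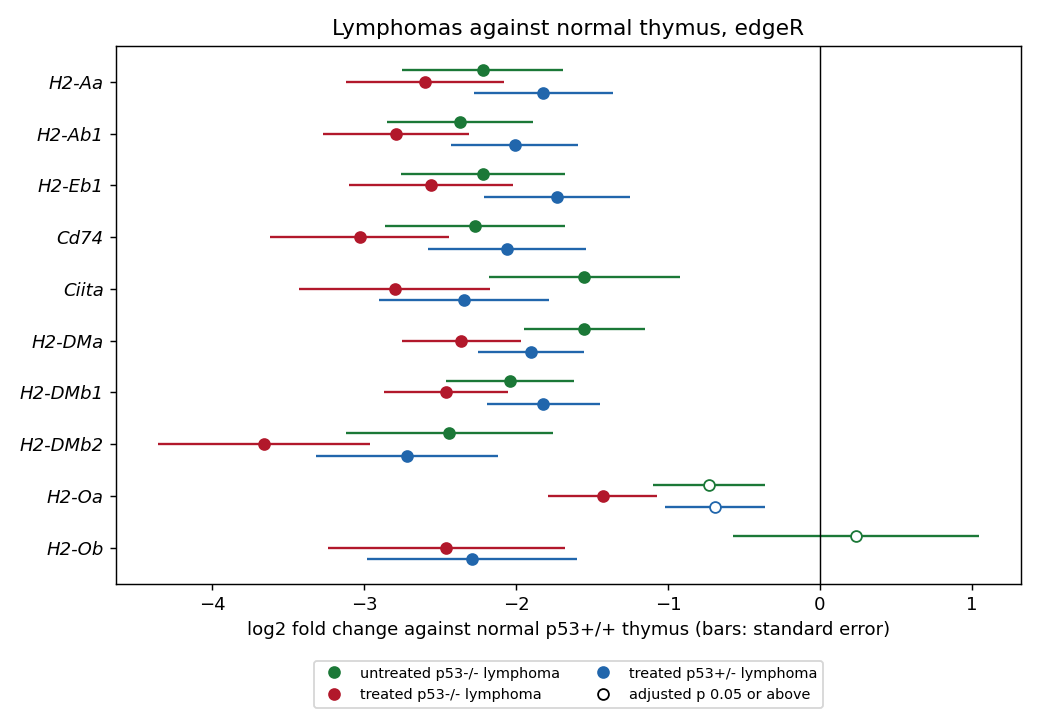
Log2 fold change of each gene against the 8 normal p53+/+ thymuses, with standard errors, from edgeR. Filled points have an adjusted p under 0.05. H2-Oa and H2-Ob hold the 3 open points, and the other 8 genes have filled points in all 3 comparisons.

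Ciita, the transactivator, was scarce. Its normal values ran from 12.9 to 78.5 CPM with a median of 25.3, and the highest was mouse 387, beside 38.1 CPM in the next thymus. Lymphoma medians were 5.37, 4.49 and 5.14 CPM, and 29 of 31 lymphomas were below every normal thymus. The exceptions were mouse 881 at 55.1 CPM, above every normal thymus other than mouse 387, and mouse 908 at 16.3 CPM. Ciita fell by 2.80 ± 0.63 in treated p53-/- (edgeR adjusted p = 0.000347) and by 2.34 ± 0.56 in treated p53+/- lymphomas (edgeR adjusted p = 0.000719).

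In untreated p53-/- lymphomas the estimate for Ciita was -1.55 ± 0.63, with an edgeR adjusted p of 0.0467, just past the threshold. This call rested on the choice of filter. The filter on low counts was first set from the design matrix, which gave -1.47 and an edgeR adjusted p of 0.054, and the setting used here was kept after both had been run. Of 50 alternatives (leaving out mouse 387 counts under 2 of them), 32 missed the threshold, 28 of them by leaving out a single mouse, with adjusted p between 0.000608 and 0.153 over all 50. Without normal mouse 387 the estimate was -1.05 (edgeR adjusted p = 0.153). It was -2.39 without mouse 881 (edgeR adjusted p = 0.000608) and -1.87 without both (edgeR adjusted p = 0.00296).

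H2-DMa and H2-DMb1 form the peptide editor H2-DM. H2-DMa had a normal median of 76.9 CPM and lymphoma medians of 20.5, 11.9 and 16.9 CPM, and all but 1 of the 31 lymphomas lay below every normal thymus. Its log2 fold change was -1.55 ± 0.40, -2.36 ± 0.39 and -1.90 ± 0.35, with edgeR adjusted p of 0.00194, 6.23e-06 and 2.89e-05. H2-DMb1 fell by 2.04 ± 0.42, 2.46 ± 0.41 and 1.82 ± 0.37, from a normal median of 55.9 CPM.

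H2-DMb2, the second beta chain gene, had log2 fold changes of -2.44 ± 0.68, -3.66 ± 0.70 and -2.72 ± 0.60. In both treated groups its estimate was the lowest of the 10 genes, with and without mouse 387. In untreated p53-/- lymphomas its estimate was -2.14 without mouse 387, beside -2.24 for H2-Ab1. Its normal median was 73.1 CPM, and the medians in lymphomas were 11, 5.27 and 12.4 CPM. H2-DMb2 over H2-DMb1 had a median of 1.3 in normal thymus (0.848 to 2.3) and 0.611 in lymphomas (0.14 to 1.55). In 22 of 31 lymphomas the ratio was below that of every normal thymus. Both genes share reads, and how their division bears on this ratio was not tested.

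H2-Oa and H2-Ob, the chains of the H2-DM inhibitor H2-O, were the members not called in every comparison. H2-Oa had a normal median of 35.3 CPM (17.3 to 68.2) and medians of 17.1, 11.8 and 19.2 CPM in lymphomas, with 13 of 31 lymphomas inside the normal range. Its log2 fold change was -1.43 ± 0.36 in treated p53-/- lymphomas (edgeR adjusted p = 0.0011). It was -0.73 ± 0.37 in untreated p53-/- (edgeR adjusted p = 0.113) and -0.69 ± 0.33 in treated p53+/- lymphomas (edgeR adjusted p = 0.0746), neither called. The first was called without mouse 881, at -0.91 (edgeR adjusted p = 0.0416), and with limma voom on unsummed libraries, at -0.84 (adjusted p = 0.0194). The second was called without mouse 280, 663, 818 or 905, at -0.72 to -0.80 (edgeR adjusted p between 0.0396 and 0.0493), with limma voom on unsummed libraries, at -0.85 (adjusted p = 0.00606), and without scaling factors, at -0.83 (edgeR adjusted p = 0.0402). DESeq2 on the summed mice called neither. H2-Oa over H2-Ab1 had a median of 0.0465 in normal thymus, with a highest value of 0.0542, and a median of 0.125 in lymphomas. In 29 of 31 lymphomas this ratio lay above every normal thymus. Such a ratio rises for any gene that falls less than H2-Ab1. The share over all genes was not computed, so the count is a description and no trait of H2-Oa.

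H2-Ob had a normal median of 28.2 CPM and ran up to 100.7 CPM in mouse 387, beside 38 CPM in the next thymus. Treated p53-/- lymphomas had 2.56 to 13.4 CPM and treated p53+/- lymphomas 0.792 to 16.8 CPM. Its log2 fold change was -2.46 ± 0.78 in the former (edgeR adjusted p = 0.00864) and -2.29 ± 0.69 in the latter (edgeR adjusted p = 0.00607). Both calls were lost without mouse 387, at -1.66 (edgeR adjusted p = 0.0593) and -1.42 (0.0906). Without mice 387 and 881 together they were -1.67 (edgeR adjusted p = 0.0129) and -1.50 (0.0181).

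Untreated p53-/- lymphomas ran from 1.46 over a median of 7.69 to 310.0 CPM of H2-Ob. The highest was mouse 881, the only lymphoma above every normal thymus. Without normal mouse 387 there were 2, the other being mouse 202 at 40.4 CPM. The estimate of 0.24 ± 0.81 (edgeR adjusted p = 0.836) turned to -1.34 without mouse 881 (edgeR adjusted p = 0.0758). H2-Ob was high in all 4 biopsies of mouse 881, at 368.8, 284.9, 287.7 and 323.6 CPM.

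Per kilobase of spliced transcript the 4 most abundant members were the same in every group. In normal thymus Cd74 led with a median of 1202 CPM per kb, followed by H2-Ab1 at 654.1, H2-Aa at 648.8 and H2-Eb1 at 322.4. H2-DMb2, H2-DMa, H2-DMb1 and H2-Oa followed between 51.3 and 32.4, and H2-Ob was at 10.6. Over the 31 lymphomas H2-Oa moved to the fifth place, at 14.2, ahead of the 3 H2-DM genes at 7.91, 7.33 and 5.84. Ciita was left out, having no principal transcript under the rule used.

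Among the lymphoma groups the members were not called apart. In a fit of the 31 lymphomas alone, edgeR called 0 of 10 members, and 0 of 16387 genes (0%), in each of the 3 contrasts. DESeq2 and limma voom also called 0 of 10, and 75, 12 and 3 (DESeq2) or 39, 1 and 1 (voom) of all genes. At an unadjusted p under 0.05, 1 of 10 members passed in each contrast, where 11.7%, 5.28% and 6.34% of all genes did. These were H2-Ob in treated against untreated p53-/- (-2.51 ± 0.86, edgeR adjusted p = 0.29), H2-Oa in treated p53+/- against treated p53-/- (0.83 ± 0.35, adjusted p = 0.937) and H2-Ob in treated p53+/- against untreated p53-/- (-2.22 ± 0.88, adjusted p = 0.776). Without mouse 881 the differences for H2-Ob were -0.97 (edgeR adjusted p = 0.57) and -0.79 (edgeR adjusted p = 0.915). H2-Ab1 differed by -0.29 ± 0.53 between treated and untreated p53-/- lymphomas, which turned to 0.20 without mouse 881. It was 0.79 ± 0.45 higher in treated p53+/- than in treated p53-/- lymphomas (edgeR adjusted p = 0.966).

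Biopsies of one lymphoma differed in class II level, in the median lymphoma less than lymphomas of different mice did. For all 10 members the median SD of log2 CPM among the biopsies of a lymphoma was below the SD among the 31 mice, as it was for 99.4% of 12383 genes with a mean log2 CPM of 1 or more. The ratio of the SD within to the SD between had a median of 0.591 over the members and 0.411 over those genes. For H2-Ab1 these were 0.66 and 1.05, for Cd74 0.93 and 1.38, and for H2-Aa 0.94 and 1.21. H2-Ob had 0.49 within and 1.62 between, and H2-Oa 0.23 within and 0.79 between. In the most uneven lymphoma the SD within exceeded the SD between mice for 9 of 10 members and for 53.2% of those genes, at 1.25 for H2-Ab1, 1.61 for Cd74, 2.25 for H2-DMb2 (1.60 between) and 2.41 for Ciita (1.29 between). Those of Ciita and H2-Oa came from mouse 857, whose biopsies had between 0 and 10 counts of Ciita and as few as 3 of H2-Oa. Without that mouse the SD within was higher for 8 of 10 members and 46.7% of those genes, the highest for Ciita was 1.37 (1.27 between), and H2-Oa had 0.79 (0.80 between). The SD within comes from 4 or 5 biopsies, and the SD between from summed biopsies, so the comparison is a description.

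The widest H2-Ab1 range was in mouse 869, treated p53-/-, with 65.7, 353.5, 79 and 50.5 CPM in biopsies 1, 3, 5 and 7, a 7-fold range. Biopsy 3 stood alone, and its Cd74 was 734.4 CPM against a lowest of 64.8. H2-DMb2 spanned 35.9-fold in this lymphoma and H2-Oa 3.57-fold. Mouse 870, also treated p53-/-, had H2-Ab1 at 100.4, 69.3, 338.4 and 130.3 CPM, with biopsy 5 highest. In mouse 905, treated p53+/-, biopsy 7 was low at 81.2 CPM beside 253.8, 389.7 and 431.9 CPM. Mouse 884 was even, with 362.3 to 474.2 CPM.

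The dendritic cell integrin Itgax moved with these biopsies, as markers of other cell types did over all 54 biopsies. It was 22.3 CPM in biopsy 3 of mouse 869 and 1.56 to 4.24 CPM in the other 3, and 22.1 CPM in biopsy 5 of mouse 870 beside 3.81 to 9.33 CPM. In biopsy 7 of mouse 905 it was 2.58 CPM beside 6.89 to 15.5 CPM. Biopsy 3 of mouse 869 also had more Cd3e, at 299.7 CPM beside 111.9 to 141.6 CPM. The part of other cells in these differences was not tested.

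**Figure D3:**
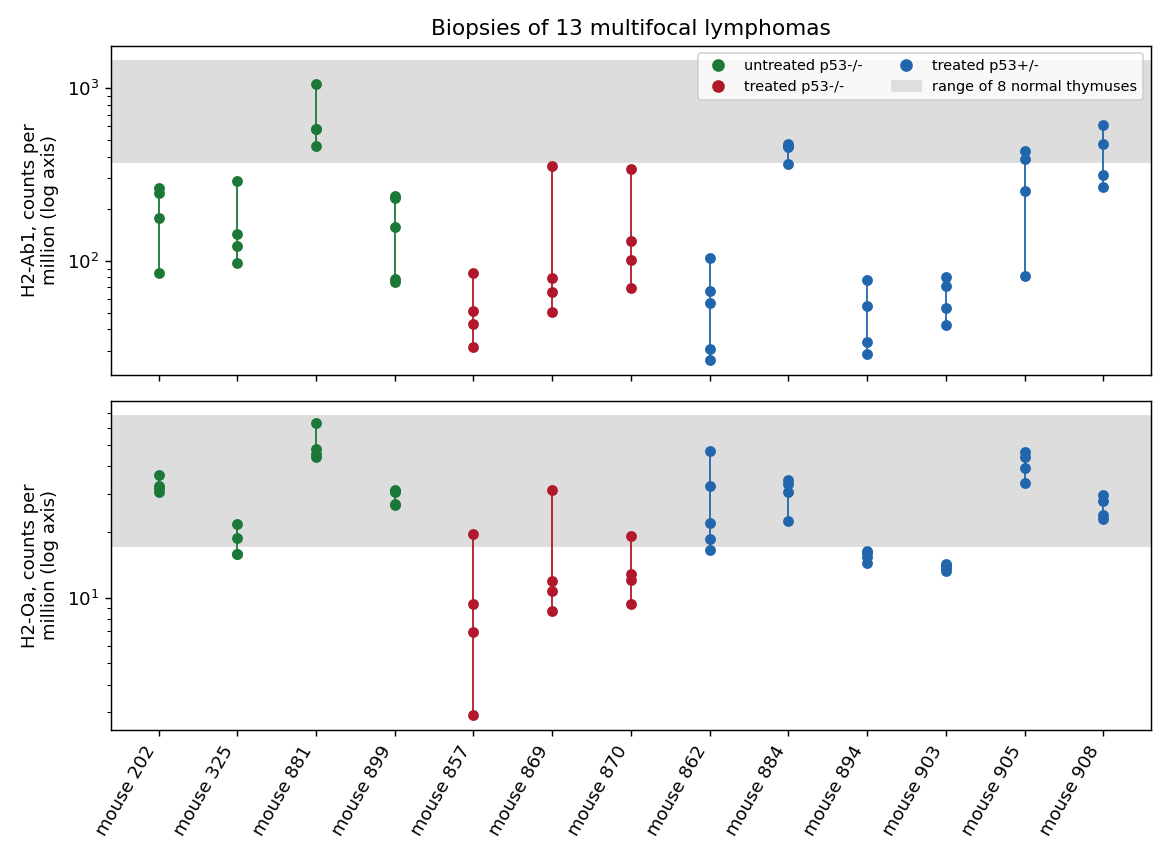
CPM (log axis) of H2-Ab1 (top) and H2-Oa (bottom) in each of 54 biopsies from 13 lymphomas, 1 column per mouse, with a line from the lowest to the highest biopsy. The grey band is the range of the 8 normal thymuses. H2-Ab1 spans 7-fold in mouse 869, and H2-Oa in 12 lymphomas spans between 1.08-fold and 3.57-fold, leaving out mouse 857 with 3 counts in its lowest biopsy.

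Across the 54 biopsies, each taken about the mean of its own lymphoma, the members moved with H2-Ab1. Pearson's r was 0.97 for H2-Eb1 and Cd74, 0.96 for H2-Aa, 0.90 for H2-DMb1, 0.83 for H2-DMb2, 0.73 for H2-DMa and 0.66 for Ciita. It was lower for H2-Ob at 0.56 and H2-Oa at 0.47, and -0.05 at the median of 12383 genes. Markers of several cell types moved with H2-Ab1 here, with a median r of 0.78 over 4 dendritic cell, 0.75 over 6 medullary epithelial, 0.56 over 10 macrophage, 0.51 over 2 cortical epithelial and 0.44 over 6 B-cell markers, and 0.07 over 11 T-cell markers. Only a part of some lists entered, namely 4 of 10 dendritic cell, 6 of 8 medullary, 2 of 5 cortical and 6 of 9 B-cell markers. The cell types are therefore not ranked. Biopsies of a lymphoma share their mouse and tumour, and these values are descriptions. The 10 other genes most like H2-Ab1 over these biopsies were Ubd, Iigp1, AW112010, Serpinb1a, Ctsh, Oasl2, Il4i1, Il13ra1, Ifitm3 and S100a16, with r from 0.91 to 0.86. Over the 31 mice they were Casp4, Ggt5, Hdc, Il4i1, Relb, Ifitm3, Itgax, Gm2564, Icosl and H2-Q6, with r from 0.81 to 0.76.

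Of 8 genes of antigen processing, 2 were lower in each lymphoma group, and 1 was higher in treated p53+/- lymphomas. A share of 2 in 8 is close to the 17.6%, 26.7% and 25.3% of all genes that were lower, and so is no result about the list. Without mouse 387 the same number were lower, and 1, 2 and 2 were higher. Their summed level had a median of 3117 CPM in normal thymus (lowest 2332) and of 1854, 2015 and 2017 CPM in lymphomas, with 24 of 31 below every normal thymus. The fall of the sum was not that of the median gene, whose log2 fold change was -0.19, -0.27 and 0.05 (0.08, 0.02 and 0.36 without mouse 387). The higher one was Lgmn, an endosomal protease (0.69 ± 0.28, edgeR adjusted p = 0.0379). The lower ones were Ctsl, the protease that trims the invariant chain in cortical epithelium, and Cst3, an inhibitor of such proteases. Ctsl fell by 3.02 ± 0.37, 2.72 ± 0.37 and 2.30 ± 0.33 on the log2 scale (edgeR adjusted p = 5.61e-08, 2.12e-07 and 4.84e-07). Ctss, the protease that does this in dendritic cells and B cells, had -0.27 ± 0.33, -0.40 ± 0.32 and 0.08 ± 0.30, and was not called. All 3 genes of surface turnover were lower in each group, and 2 of 3 without mouse 387. Cd83, which slows the removal of class II molecules, fell by 2.97 ± 0.38, 3.52 ± 0.40 and 2.81 ± 0.35.

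Of the 7 promoter factors that Ciita works with, 1, 2 and 3 were lower and 1, 1 and 2 were higher in the 3 lymphoma groups. Without mouse 387 the lower ones were 1, 2 and 1, and without mouse 881 they were 2, 2 and 3 and the higher ones 0, 1 and 2. Over all genes 17.6%, 26.7% and 25.3% were lower and 23.2%, 25.4% and 25.6% higher. Rfxank, a subunit of the factor that binds the upstream element, fell by 0.77 ± 0.16, 0.97 ± 0.16 and 0.89 ± 0.15. Of the 8 genes of the interferon gamma route to Ciita, 7 were tested and 3 were lower in each group (2, 3 and 3 without mouse 387). Socs1, a feedback inhibitor of the route, changed most in the untreated p53-/- lymphomas, with -1.93 ± 0.40 (edgeR adjusted p = 0.000232).

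Of the genes that lie among the members on chromosome 17, 7 were tested. Over all genes 17.6%, 26.7% and 25.3% were lower and 23.2%, 25.4% and 25.6% higher, and counts in 7 genes are no result beside these shares. Of the 7, 0 were lower and 0 higher in untreated p53-/- lymphomas, and 1 was lower and 1 higher in each treated group. These were Tap1, a peptide transporter of class I presentation (-0.86 and -0.48), and Psmb8, an immunoproteasome subunit (0.59 and 0.56). The median log2 fold change of the 7 was -0.28, -0.07 and 0.17, beside -2.13, -2.58 and -1.96 for the members. The part of the locus in the fall of the members was not tested.

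Of the markers of cells that can carry class II, those of cortical epithelium and dendritic cells were mostly lower in lymphomas, and those of macrophages were mostly not called. Over all genes 17.6%, 26.7% and 25.3% were lower and 23.2%, 25.4% and 25.6% higher in the 3 lymphoma groups. All 5 cortical epithelial markers were lower in each lymphoma group. Their summed level was 90.4 to 1963 CPM in normal thymus, with mouse 387 lowest and 1022 CPM the lowest of the others, and 14.4 to 77.9 CPM in lymphomas. Of 10 dendritic cell markers 8 were lower in each group, and their sum went from 61 to 317.9 CPM in normal thymus to 7.78 to 99.9 CPM in lymphomas. Of 8 medullary epithelial markers 2, 6 and 5 were lower, and 4, 6 and 5 without mouse 881. With all mice, the 2 of 8 in untreated p53-/- lymphomas is close to the share of all genes, and so is no result about the list. Of 10 macrophage markers 0, 1 and 0 were lower and none higher, while without mouse 387 none was lower and 1 was higher in treated p53+/- lymphomas, and their sum was 272.0 to 1254 CPM in normal thymus and 296.2 to 1198 CPM in lymphomas. No marker of these lists was at 0 in every mouse of a group. All 4 brown fat markers were lower too, with a sum of 351.1 to 2179 CPM in p53+/+ thymus and 3.21 to 30.6 CPM in lymphomas. In the single p53+/- normal thymus that sum was 17.2 CPM, and H2-Ab1 was within the normal range. The part of fat and of the other cells named here in the fall of the members was not tested.

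The counts for B-cell markers rested on mice 387 and 881. Over all genes 17.6%, 26.7% and 25.3% were lower and 23.2%, 25.4% and 25.6% higher with all mice. Of the B-cell markers, 0 of 9 were then lower in untreated p53-/- lymphomas and 7 of 9 in each treated group. Without mouse 881 these counts were 6, 9 and 8, without mouse 387 they were 0, 3 and 0 (with 1 higher in the first), and without both 1, 5 and 1. Their sum was 112.1 to 1439 CPM in normal thymus, highest in mouse 387, and 12.2 to 3995 CPM in lymphomas, highest in mouse 881. In untreated p53-/- lymphomas 8 of 10 lay below every normal thymus, at 12.2 to 45.3 CPM, and mouse 98 had 488.2 CPM. In treated lymphomas 9 of 9 p53-/- and 8 of 12 p53+/- lay below. Counts for T-cell markers were near or below the shares of all genes, and so are no result about that list. Of 11 T-cell markers 2, 1 and 2 were lower and 0, 1 and 1 higher, and without mouse 387 the same numbers were lower and none was higher. Their sum had a median of 9977 CPM in normal thymus, with 1335 CPM in mouse 387 and 8370 to 12671 CPM in the others, beside 4688, 6579 and 6063 CPM in the lymphoma groups. Without mouse 387, 26 of 31 lymphomas lay below every normal thymus. The markers summed to 207.9 CPM in mouse 881, the lowest of all mice, and to between 3108 and 10288 CPM in the treated lymphomas.

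**Figure D4:**
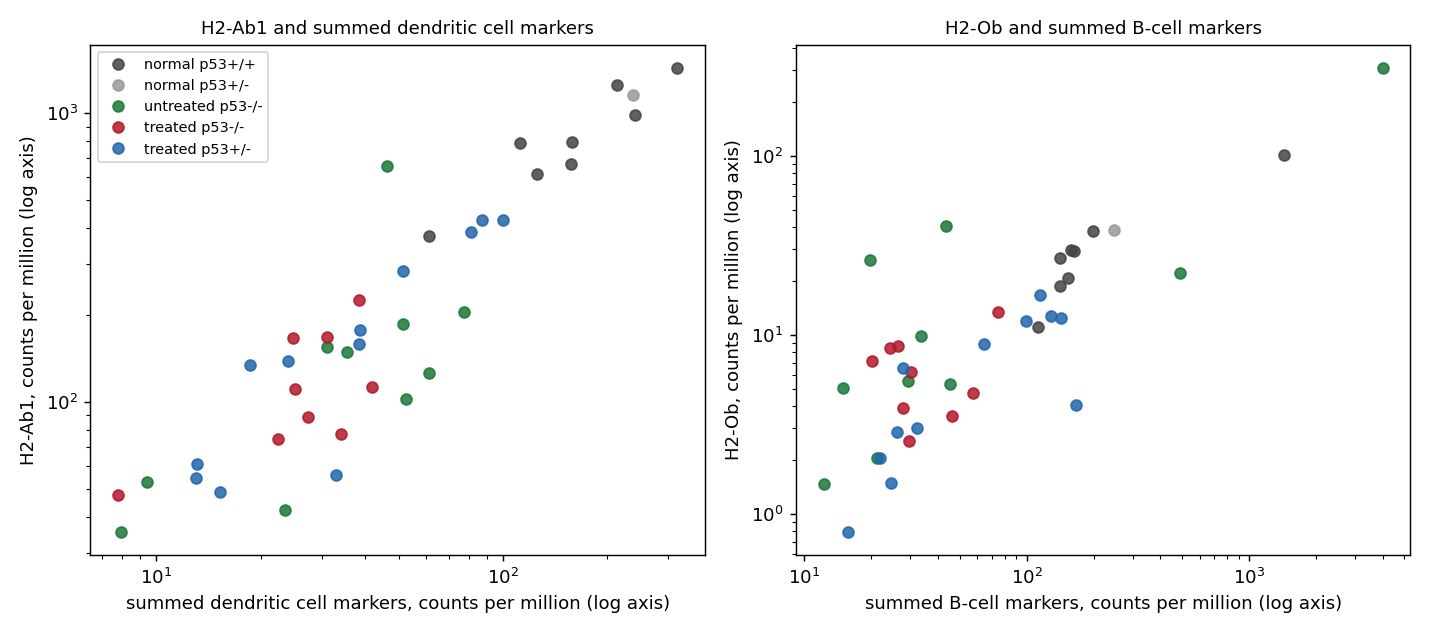
Left, H2-Ab1 against the summed level of 10 dendritic cell markers. Right, H2-Ob against the summed level of 9 B-cell markers. Each point is 1 mouse, all axes are CPM on a log scale and colours give the group. Mouse 881 is the point at the top right of the B-cell panel, at 310.0 CPM of H2-Ob and 3995 CPM of the markers.

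Over the 31 lymphomas, the mean log2 CPM of 6 marker lists was set against H2-Ab1 and H2-Ob, 12 relations in all, with two-sided permutation tests of 100000 draws. H2-Ab1 ran with the dendritic cell markers, at Pearson's r = 0.85 and Spearman's rho = 0.84 (permutation p = 1e-05 for both, the smallest possible, and adjusted p = 6e-05 and 0.00012). Without the 2 mice farthest from the median on the marker axis, r was 0.80. Within the 3 lymphoma groups it was 0.78, 0.74 and 0.91. H2-Ab1 and macrophage markers had r = 0.31 and rho = 0.31 (permutation p = 0.0843 and 0.0873, adjusted p = 0.0919 and 0.116).

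H2-Ob and B-cell markers had r = 0.76 and rho = 0.63 (permutation p = 1e-05 and 0.00014, adjusted p = 6e-05 and 0.00063). Without mice 98 and 881, the 2 farthest, r was 0.55. Within the groups r was 0.80, -0.11 and 0.94, so the relation did not hold within treated p53-/- lymphomas. H2-Ab1 and B-cell markers had r = 0.62 and rho = 0.61 (permutation p = 0.00012 and 0.00044, adjusted p = 0.000432 and 0.00088). Within the groups this r was 0.71, 0.13 and 0.65.

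Other lists ran with both genes. H2-Ab1 had r = 0.61 and rho = 0.62 with cortical epithelial markers (adjusted permutation p = 0.000432 and 0.00063) and r = 0.58 and rho = 0.62 with medullary ones (adjusted permutation p = 0.00156 and 0.000768). H2-Ob had r = 0.54 and rho = 0.62 with dendritic cell markers (adjusted permutation p = 0.003 and 0.00063), a rho close to that with B-cell markers, though r was -0.06 within treated p53-/- lymphomas. With cortical and medullary markers its r was 0.50 and 0.39 (adjusted permutation p = 0.00613 and 0.0312), but within treated p53+/- lymphomas 0.11 and -0.03, and with macrophage markers -0.01 (adjusted permutation p = 0.95). With T-cell markers H2-Ob had r = -0.71 and rho = -0.22 (adjusted permutation p = 0.000432 and 0.246), and H2-Ab1 had r = -0.48 and rho = -0.28 (adjusted permutation p = 0.00669 and 0.157). Within untreated p53-/-, treated p53-/- and treated p53+/- mice r was -0.86, 0.75 and -0.41 for H2-Ob and -0.85, 0.48 and -0.35 for H2-Ab1, so the sign was opposite within treated p53-/- lymphomas. Without mice 202 and 881 these pooled r were -0.28 and -0.23, so both rest on those mice.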

How the data were processed

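RNA sequencing of 81 libraries from 40 mice was deposited as 1 table of expected counts (RSEM gene estimates, not scaled between libraries) for 51826 genes, of which 14.25% of values are not whole. Per the submitters' processing notes, the tools were CASAVA 1.8, fastp, STAR 2.7.2b and RSEM 1.1.17 with build mm10. Annotation release and strandedness are not given in the sources used here.

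Expected counts were rounded and biopsies summed per mouse. edgeR 4.0.16 (TMM, filterByExpr, robust quasi-likelihood, labelled sex as covariate) gave 1 fit with normal thymus and 1 of lymphomas alone. Genes with a Benjamini-Hochberg adjusted p under 0.05 were called. The low-count filter was first run with the design matrix and then with the groups, and the latter was kept after the counts over all genes under both had been seen. DESeq2 1.42.0 on the sums and limma 3.58.1 (voom on unsummed libraries, mouse as a correlation) were alternatives. CPM is relative to library totals, and log2 CPM used TMM scaling with 2 as prior count. The code was tested on simulated data.

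All 10 members are named. Of each other list the text gives counts and, for some, genes that move with a result. For antigen processing, surface turnover, promoter factors and the interferon gamma route it also names the called gene with the largest change. Cst3, Lgmn, Ctss, Tap1 and Psmb8 were named after their values were seen. The members and lists were chosen with earlier results of these data known. Promoter sequences are from RefSeq, GRCm38.p6, and coordinates from GENCODE M21. Values carry counting error too, and reads without molecular identifiers are not independent molecules. Some genes of the lists are not reported here by name.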

Additional observations from a re-analysis of the deposited data

Results flagged for a closer look

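Members were checked for a mouse far from the others of its group, by the gap to its neighbour over the range of the group (Dixon's ratio at the 95% level), in 30 sets of 8 to 10 mice. Chance marks about 1 in 20 such sets. On CPM, 11 sets had such a mouse, and on log2 CPM 2 had one. The CPM scale was chosen with the values known, so both are given.

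Mouse 387 was past the limit on both scales, as the highest normal thymus, for Ciita (78.5 CPM) and H2-Ob (100.7 CPM). On CPM alone, mouse 881 was the highest untreated p53-/- lymphoma for H2-Aa (616.6), H2-Ab1 (659.7), H2-Eb1 (407.8), Cd74 (1636), Ciita (55.1), H2-DMb1 (40.3), H2-DMb2 (62.5) and H2-Ob (310.0). On CPM alone, mouse 663 was the highest treated p53-/- lymphoma for H2-Oa (36.4 CPM, beside 18.6 CPM in the next).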

How the results depend on the processing

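Counts of members called stayed within 1.5 times of those reported under every alternative run. Leaving out 1 mouse at a time gave 7 to 9 members lower in untreated p53-/-, 9 to 10 in treated p53-/- and 8 to 10 in treated p53+/- lymphomas. Without scaling factors the median of all genes in treated p53+/- lymphomas was -0.12, beside -0.00. Of 2700 alternative values of single genes, 36 lost a call, 8 gained one and 33 changed sign, none of the last called. Leaving out mice 387 and 881 together and the filter from the design matrix were added after seeing the data. The causes were not tested. No paired analysis was possible because the groups share no replicate numbers.

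H2-Ob in untreated p53-/- lymphomas against normal thymus turned to -1.04 with limma voom, -1.54 with single-biopsy mice and -0.72 without mice 387 and 881, and ran from -1.34 to 0.84 with 1 mouse left out. Between treated and untreated p53-/- lymphomas, voom gave 0.09 for H2-Aa, 0.12 for H2-Eb1 and 0.05 for H2-DMb1. Single-biopsy mice gave 0.37 for H2-Aa, 0.50 for H2-Ab1, 0.36 for H2-Eb1, 0.24 for Cd74, 0.11 for Ciita and 0.23 for H2-DMb1. Without mice 387 and 881 these were 0.17 for H2-Aa, 0.20 for H2-Ab1, 0.16 for H2-Eb1 and 0.01 for H2-DMb1. With 1 mouse left out the ranges were -0.42 to 0.17 for H2-Aa, -0.50 to 0.20 for H2-Ab1, -0.40 to 0.16 for H2-Eb1 (0.02 without mouse 857) and -0.43 to 0.01 for H2-DMb1.

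Between treated p53+/- and treated p53-/- lymphomas, voom gave -0.13 for H2-Ob. Between treated p53+/- and untreated p53-/- lymphomas, Ciita was 0.43 with single-biopsy mice and 0.16 without mice 387 and 881, and ran from -0.95 to 0.16 with 1 mouse left out. H2-DMb2 was 0.52 with voom, 0.75 with single-biopsy mice, 0.47 without mice 387 and 881 and 0.02 without the 3 mice of doubtful sex, and ran from -0.26 to 0.47 with 1 mouse left out. H2-DMa was 0.02 without those 3 mice, and H2-Oa was -0.05 without the sex covariate.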
